A study of Mus musculus with 6 samples.

Results

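The elastic fibre genes examined here encode elastin, a fibrillin, the microfibril-associated glycoproteins, the fibulins and EMILIN-1. They were measured in mouse embryonic fibroblasts (MEFs), connective tissue cells grown from embryos, with and without functional Pax7, a transcription factor with a paired domain and a homeodomain that marks the stem cells of skeletal muscle. The set names 10 genes, Eln, Fbn2, Mfap2, Mfap4, Mfap5, Fbln1, Fbln2, Fbln5, Efemp2 and Emilin1, taken by symbol among the probe sets that name a single gene. Of these, 9 were measured, each by 1 probe set, out of 22180 genes in all; Efemp2 was not matched to such a probe set and is not analysed here. Where a gene had several probe sets, 1 was chosen by its mean signal over all 6 arrays, a rule that no gene here needed. The list of symbols was drawn up with earlier results of these arrays known, so its counts are descriptions and no test was made over the list.

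Wild type cells (Pax7+/+, 3 arrays) were compared with knockout cells (Pax7-/-, 3 arrays), both from the F1 of C57Bl6N and 129Sv, grown in medium with serum and collected at confluence. The titles call the arrays biological replicates 1 to 3 of each genotype, without saying which embryos or cultures these were, so p-values measure only the spread between these samples. The sources used here give neither the age of the embryos nor the allele behind the loss of Pax7. Values are log2 signals of single probe sets, given in the order of replicates 1, 2 and 3 throughout; differences are knockout minus wild type, and the level of one gene is not set against that of another because each probe set has its own response.

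Elastic fibres give tissues such as arteries, lung and skin their recoil. Cells secrete tropoelastin, the soluble product of Eln, which is deposited on a scaffold of fibrillin microfibrils and crosslinked by lysyl oxidases into an insoluble core. Microfibril-associated glycoproteins decorate the scaffold, and fibulins and EMILIN-1 help to bring elastin, the crosslinking enzymes and the microfibrils together. Fibroblasts and smooth muscle cells are the main makers of these fibres, and most elastin is laid down before and shortly after birth.

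The 2 arrays of replicate 3 differed from the rest: over all genes their correlation was 0.992, that among the other 4 arrays was 0.988 to 0.99, and that between the 2 sets was 0.814 to 0.844. A background level was set on each array below which 95 percent of 1396 receptor genes of smell and pheromone sensing lay; this was 5.33 to 5.44 on replicates 1 and 2 and 4.63 and 4.65 on replicate 3. All 9 genes lay above it on all 6 arrays, as did 8421 genes in all. The Pax7 probe set read 6.14, 5.65 and 4.88 in wild type and 6.17, 5.95 and 5.05 in the knockout; where it lies against the disrupted part of the gene is not given, so it does not check the genotype. The labels are at odds on the cells, with ESCs, or embryonic stem cells, as cell type but fibroblasts in titles and source: all 8 fibroblast markers were above background on every array, whereas of 7 pluripotency markers 1, Pou5f1, was above it on all 6 and 3 (Zfp42, Esrrb and Tdgf1) on none.

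Elastin had the largest mean difference of the 9 genes, and fibrillin-2 the next largest; both were lower in the knockout within each replicate number. Mfap5, Fbln1 and Mfap2 were lower in each pair by smaller amounts, Fbln5 and Emilin1 by less still, Mfap4 had no common sign and Fbln2 was higher in each pair. None of the 9 passed a test over all genes with genotype as the only term (limma, adjusted p = 1.00 for each) or with the replicate number as a block (smallest adjusted p = 0.0578, for Fbn2). With the block, 0.0676% of all genes passed as lower and 0.00902% as higher. Without it 0 genes passed, and 15 genes, none of them among the 9, had an unadjusted p under 0.05. A lower signal in bulk RNA can come from fewer cells that make the transcript or from less of it in each cell, and these cannot be told apart here.

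**Figure D1:**
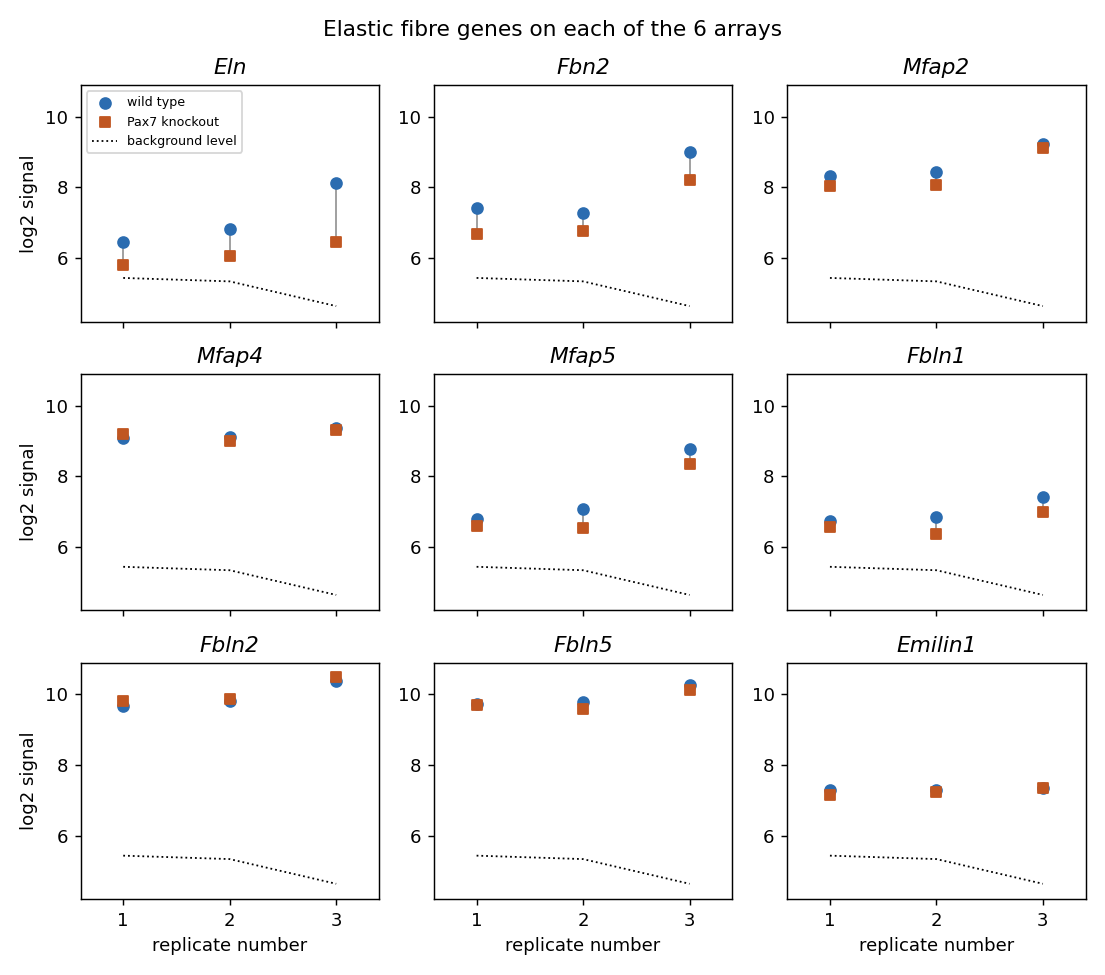
Log2 signal of the 9 measured elastic fibre genes (vertical axis) by replicate number (horizontal axis) in wild type (circles) and Pax7 knockout (squares), with a grey line joining the arrays of equal number and a dotted line for the background level, averaged over both genotypes. Eln and Fbn2 are lower in the knockout at each number, and signals of replicate 3 lie above those of replicates 1 and 2 in both genotypes.

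Eln, the elastin gene, read 6.45, 6.83 and 8.13 in wild type and 5.79, 6.05 and 6.47 in the knockout (probe set 17453454). The knockout was the lower array at each number, but the groups overlapped, since knockout replicate 3 lay above wild type replicate 1. The means were 7.14 ± 0.88 and 6.10 ± 0.34 (SD, n = 3 each), a difference of -1.04, or 2.05-fold. Within the pairs the difference was -0.66, -0.78 and -1.67 (SD 0.55), so that the third was the largest. The limma SEs and intervals given here draw the variance of each gene towards that of all genes. With the block, those of Eln are narrower than its own 3 pair differences alone would give. With the replicate block the SE was 0.17 and the 95% interval ran from -1.42 to -0.65 (limma, adjusted p = 0.101; SE 0.48 and adjusted p = 1.00 without the block). An exact two-sided permutation test over the 6 arrays, which ignores the replicate numbers, gave p = 0.2, where 0.1 is the smallest it can give. Among the 8421 genes above background on all arrays, 3 including Eln were as low as Eln or lower in the mean difference.

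The value of Eln depended on replicate 3. Without wild type replicate 3 the difference was -0.54, a fit that leaves the genotypes with unequal numbers of replicate 3 arrays, and with the block and neither replicate 3 array it was -0.72 (SE 0.12). Eln passed the threshold with the block in 3 other settings: without replicate 1 of both genotypes (-1.22, adjusted p = 0.000729), after quantile normalization of the arrays (-1.01, SE 0.10, adjusted p = 0.0291) and when only genes above background on at least 3 arrays were tested (adjusted p = 0.035), the last of which was added after the data were seen. With the block Eln did not pass without replicate 2 (limma, adjusted p = 0.204) or replicate 3 (adjusted p = 0.0954) of both genotypes. It also did not pass with the block and a variance trend (adjusted p = 0.0592), a setting added after the data were seen. With replicate 3 as a batch the adjusted p was 0.128.

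Fibrillins are the large glycoproteins that form the microfibril itself, and fibrillin-2 is the form made mainly in the embryo. Fbn2 read 7.42, 7.27 and 8.99 in wild type and 6.69, 6.76 and 8.20 in the knockout. Each knockout array lay below the wild type array of the same number, while the genotypes overlapped through replicate 3. The means were 7.89 ± 0.95 and 7.22 ± 0.85 (SD, n = 3 each), a difference of -0.68 or 1.6-fold. The pairs, at -0.72, -0.51 and -0.80, differed less among themselves (SD 0.15) than those of Eln (SD 0.55); whether the spreads differ was not tested. With the block the 95% interval was -0.90 to -0.46 (SE 0.10, limma, adjusted p = 0.0578). With replicate 3 as one batch and replicates 1 and 2 as the other in place of the 3 numbers, Fbn2 passed (adjusted p = 0.0405). It also passed with the block and neither replicate 1 array (-0.66, adjusted p = 0.0284) and, in settings added after the data were seen, with the filter on dim genes (adjusted p = 0.0276) or with a variance trend (adjusted p = 0.024). Fbn2 did not pass with the block and without replicate 2 (limma, adjusted p = 0.129) or replicate 3 (adjusted p = 0.206) of both genotypes. Nor did it pass with the block after quantile normalization (adjusted p = 0.0785). Without the block, leaving out wild type replicate 3 gave -0.13 and leaving out knockout replicate 3 gave -1.17. Fbn1, the other fibrillin gene of the mouse, was not matched to a single-gene probe set and is not analysed here.

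**Figure D2:**
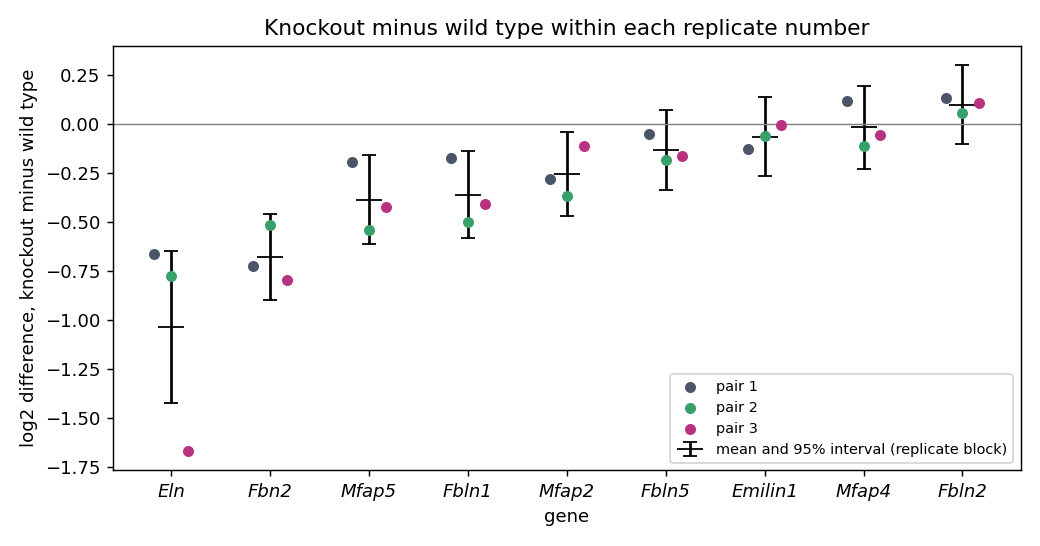
Log2 difference, knockout minus wild type, of each gene (horizontal axis) within replicate numbers 1, 2 and 3 (coloured points), with the mean and its 95% interval from limma with the replicate block (black). The intervals of Eln, Fbn2, Mfap5, Fbln1 and Mfap2 lie below 0 before adjustment for the number of genes, and those of Fbln5, Emilin1, Mfap4 and Fbln2 include 0.

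The promoters of these genes are shown where RefSeq's table (build GRCm38.p6) gives one that begins at the outermost start of the gene. The table held 6 of the 10 genes, and 3 of the measured ones, Mfap2, Fbln1 and Fbln5, met this condition. The 250 bases before the start are given 5′ to 3′ on the strand of the gene. They are chr4:141010174-141010423 (+) for Mfap2, chr15:85205699-85205948 (+) for Fbln1 and chr12:101819120-101819369 (-) for Fbln5. Capitals mark matches, on either strand, to any of 6 motifs: the TATA box TATAAA, the GC box GGGCGG, the AP-1 site TGANTCA, the SMAD element CAGAC, the paired domain core GTCAC, and the homeodomain site TAATTA. Neighbouring matches can share bases at their ends, as for an AP-1 site and a paired domain core, but no motif lies wholly within another.
Mfap2: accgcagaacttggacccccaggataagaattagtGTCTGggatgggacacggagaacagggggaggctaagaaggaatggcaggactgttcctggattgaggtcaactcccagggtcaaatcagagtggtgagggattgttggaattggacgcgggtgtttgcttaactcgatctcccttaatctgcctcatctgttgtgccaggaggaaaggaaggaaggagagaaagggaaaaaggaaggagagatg
Fbln1: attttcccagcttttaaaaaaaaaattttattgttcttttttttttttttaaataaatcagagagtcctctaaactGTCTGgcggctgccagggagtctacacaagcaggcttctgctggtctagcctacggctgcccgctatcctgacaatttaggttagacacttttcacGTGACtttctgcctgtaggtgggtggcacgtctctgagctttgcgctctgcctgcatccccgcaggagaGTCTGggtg
Fbln5: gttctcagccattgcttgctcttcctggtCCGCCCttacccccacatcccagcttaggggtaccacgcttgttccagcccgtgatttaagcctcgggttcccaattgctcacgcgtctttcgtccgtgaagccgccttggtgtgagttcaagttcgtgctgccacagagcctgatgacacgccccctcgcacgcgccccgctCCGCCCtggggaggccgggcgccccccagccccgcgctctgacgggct

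The 3 sequences differ in composition, with 51.2% G and C for Mfap2, 46.4% for Fbln1 and 65.2% for Fbln5. None of the 3 holds the TATA box, which 13% of 27025 promoters of the same length hold, nor the AP-1 site (6.85%) or the homeodomain site (4.91%). The GC box, in 33% of promoters, occurs 2 times in Fbln5 and in neither of the others. The SMAD element, in 42.2% of promoters, occurs 1 time in Mfap2 and 2 times in Fbln1. The paired domain core, in 39.9% of promoters, occurs 1 time, in Fbln1, 78 bases before the start. These are matches of letters, and no binding was measured.

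Mfap2 and Mfap5 encode the small glycoproteins MAGP-1 and MAGP-2, which bind fibrillin along the microfibril. Mfap5 read 6.79, 7.08 and 8.78 in wild type and 6.59, 6.53 and 8.36 in the knockout. Its pair differences were -0.19, -0.54 and -0.42, with a mean of -0.39 (SE 0.10 with the block, limma, adjusted p = 0.432). Mfap2 read 8.31, 8.43 and 9.23 in wild type and 8.04, 8.06 and 9.12 in the knockout. Its pair differences of -0.28, -0.37 and -0.11 gave a mean of -0.25 (SE 0.10 with the block, limma, adjusted p = 0.678). Both genes were lower in the knockout at each number. On the deposited values, in both the step from replicates 1 and 2 to replicate 3 was larger than the step between genotypes. Both changed sign when wild type replicate 3 alone was left out, Mfap5 to 0.23 and Mfap2 to 0.03, and kept it when both replicate 3 arrays were left out with the block (-0.37 and -0.32). Mfap2 is a near neighbour of Pax7 on the chromosome, with 11 protein-coding genes between them in RefSeq's order (assembly GRCm38.p6).

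Mfap4 encodes a fibrinogen-like glycoprotein found on elastic fibres, and is not related in sequence family to Mfap2 and Mfap5. It read 9.08, 9.12 and 9.36 in wild type and 9.20, 9.00 and 9.30 in the knockout. The genotypes overlapped and the pairs had no common sign (0.12, -0.11 and -0.05). The mean difference was -0.02, with a 95% interval of -0.23 to 0.20 (limma with the block, adjusted p = 0.99). After quantile normalization its mean had the opposite sign, at 0.0073.

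Fibulins are secreted glycoproteins with rows of calcium-binding EGF modules. Fbln5, needed in mice for elastic fibre assembly, read 9.74, 9.78 and 10.28 in wild type and 9.69, 9.60 and 10.11 in the knockout. It was lower at each number by -0.05, -0.18 and -0.16, a mean of -0.13 with a 95% interval of -0.34 to 0.07 (limma with the block, adjusted p = 0.842). Fbln1, which is found in basement membranes as well as in elastic fibres, read 6.73, 6.86 and 7.40 in wild type and 6.56, 6.36 and 6.99 in the knockout. Its pair differences of -0.17, -0.50 and -0.41 had a mean of -0.36 with a 95% interval of -0.58 to -0.14 (limma with the block, adjusted p = 0.473). Fitted with no block it was -0.16 when wild type replicate 3 was left out and -0.22 when knockout replicate 2 was.

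Fbln2, which lies at the border of elastic fibres and microfibrils, was the 1 gene of the 9 with higher signal in the knockout at each number. It read 9.68, 9.81 and 10.38 in wild type and 9.82, 9.87 and 10.49 in the knockout. The steps were small and alike, at 0.13, 0.06 and 0.11, with a mean of 0.10 and a 95% interval of -0.10 to 0.30 (limma with the block, adjusted p = 0.883). The pair differences of Fbln2 thus lay above 0 where those of Fbln1 and Fbln5 lay below it; the difference between family members was not tested.

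Emilin1 encodes a glycoprotein at the surface of the elastin core, which also binds integrins and restrains TGF-beta processing. It read 7.29, 7.29 and 7.36 in wild type and 7.16, 7.23 and 7.35 in the knockout. The genotypes overlapped and the third pair was level (-0.12, -0.06 and -0.0024). The mean difference was -0.06, with a 95% interval of -0.27 to 0.14 (limma with the block, adjusted p = 0.938). After quantile normalization its pairs were -0.17, 0.011 and 0.012, so that its common sign was lost.

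As a group, 7 of the 9 genes were lower in all 3 pairs and 1 was higher, where 15.3% of the 8421 genes above background on all arrays were lower in all 3 pairs and 15.5% higher (13.8% and 13.8% of all genes). The median difference of the 9 was -0.25, against -0.0018 over all genes tested, and the pair medians were -0.17, -0.37 and -0.16. With the block, 5 of the 9 (Eln, Fbn2, Mfap5, Fbln1 and Mfap2) had an unadjusted p under 0.05 as lower, where 4.79% of genes above background on all arrays did. For 0 of the 9 were all knockout arrays below or above all wild type arrays, as for 0.744% and 0.667% of genes. The median was 0.03 without wild type replicate 3, -0.08 and -0.07 without knockout replicates 1 and 2, and -0.54 without the third. It was -0.42 when wild type replicate 1 was left out. With the block and without replicates 1, 2 and 3 in turn it was -0.24, -0.19 and -0.32.

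**Figure D3:**
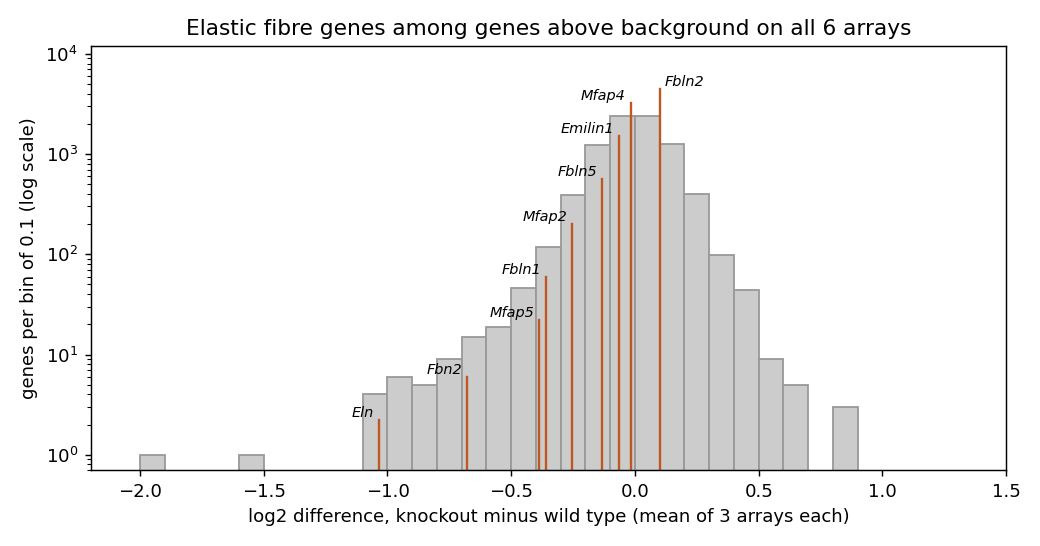
Number of genes (vertical axis, log scale) by mean log2 difference, knockout minus wild type (horizontal axis, bins of 0.1), for the 8421 genes above background on all 6 arrays, with the 9 elastic fibre genes as labelled lines whose heights carry no value. Eln and Fbn2 lie in the lower tail, while Mfap4, Emilin1, Fbln5 and Fbln2 lie within the bulk of the distribution.

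On the deposited values the step to replicate 3 was larger than the difference between genotypes for 8 of the 9 genes, all but Eln. For Eln the step and the difference were close in size, at 1.02 and -1.04. All 9 were higher on replicate 3 than on both other arrays of the same genotype, as were 67.5% of the genes above background on all arrays. Taken over both genotypes, the step was 1.82 for Mfap5, 1.56 for Fbn2, 1.02 for Eln, 0.96 for Mfap2, 0.64 for Fbln2, 0.57 for Fbln1, 0.49 for Fbln5, 0.23 for Mfap4 and 0.11 for Emilin1. Their median step of 0.64 lay below the 0.82 of all genes above background, so a rise on replicate 3 was no feature of these genes alone. The replicate 3 arrays also had a wider spread of signals, with interquartile ranges of 2.98 and 3.02 against 1.61 to 1.69.

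Putting all arrays on one distribution (quantile normalization) changed these steps: Mfap5 kept 0.74, Fbn2 0.47 and Eln 0.28, whereas Emilin1 and Mfap4 came to lie lower on replicate 3, by -0.85 and -0.72. The step was then smaller in size than the genotype difference for Fbn2 (0.47 against -0.71), Fbln1 (-0.28 against -0.35) and Fbln2 (0.092 against 0.11). This also held for Eln and Mfap2. It stayed the larger for Mfap5, Mfap4, Fbln5 and Emilin1, so the order of step and genotype difference depended on the normalization. The step of Eln on the deposited values had been 1.49 in wild type and 0.54 in the knockout. After quantile normalization the pair differences of Eln were -0.91, -0.90 and -1.23 in place of -0.66, -0.78 and -1.67, closer to each other. Those of Fbn2 were -0.83, -0.48 and -0.81, near the deposited ones. Since replicate 3 holds 1 array per genotype, whether the elastin difference is larger there cannot be tested.

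**Figure D4:**
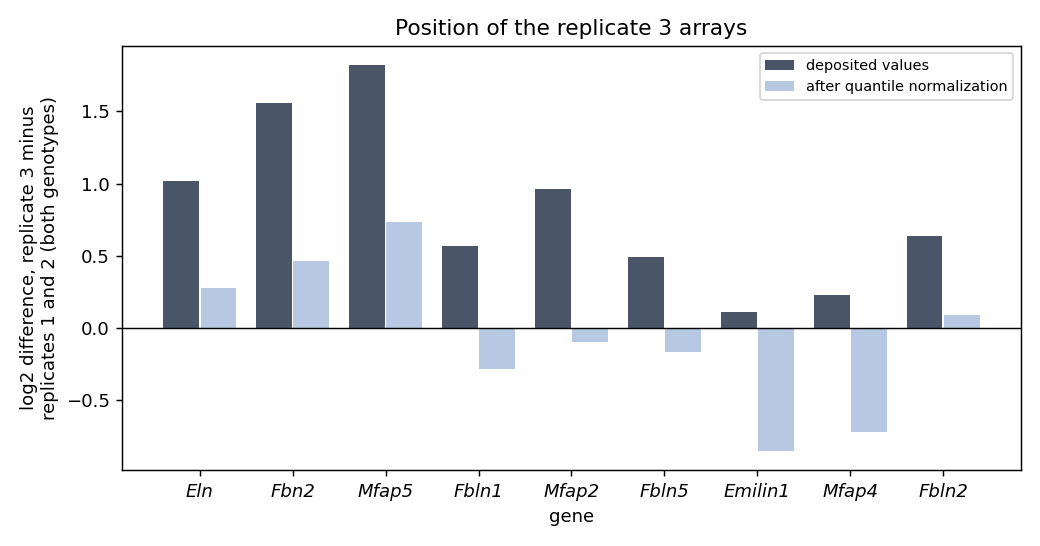
Log2 difference between the replicate 3 arrays and the mean of replicates 1 and 2, over both genotypes (vertical axis), for each gene (horizontal axis), from the deposited values (dark bars) and after quantile normalization (light bars). All 9 dark bars lie above 0, from 0.11 to 1.82, and 5 of the light bars lie below 0.

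Other genes of elastic fibres were followed in 7 lists with 77 genes in all, of which 69 were measured. With the block 1 of the 69 passed as lower and 0 as higher, and without it 0 passed. In all 3 pairs 15 were lower and 15 higher, where 13.8% of all genes were lower and 13.8% higher. The median difference of the 69 was 0.02. The 1 gene that passed was Dcn, the proteoglycan decorin, which binds collagen and microfibrils. It read 8.21, 8.39 and 9.40 in wild type and 6.18, 6.23 and 7.80 in the knockout, without overlap, and fell by 1.93 (SE 0.12, limma with the block, adjusted p = 0.000578; adjusted p = 1.00 without it). Dcn was the only gene of these lists to pass, and no member of the 9 was as low.

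**Figure D5:**
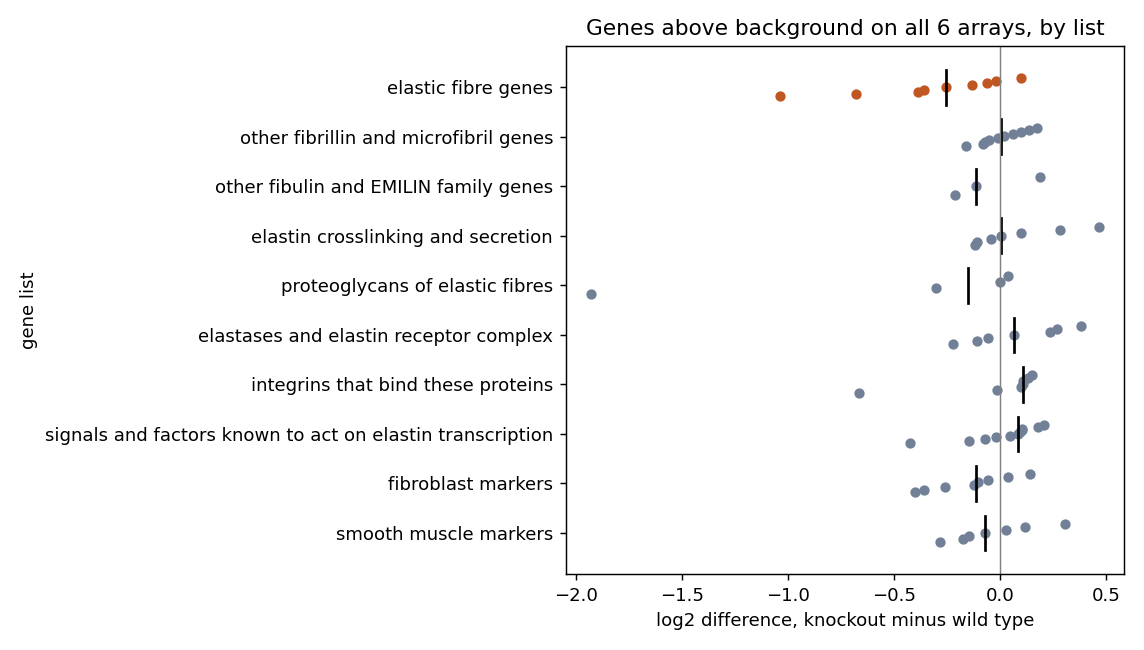
Mean log2 difference, knockout minus wild type (horizontal axis), of the genes above background on all 6 arrays in each list (vertical axis), with the list's median as a black bar. The elastic fibre genes have their median at -0.25, the other lists have medians between -0.15 and 0.11, and the point far to the left is Dcn at -1.93.

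Microfibril genes other than those above had a median difference of -0.03 over 14 measured genes and 0.0068 over the 10 above background on all 6 arrays. Ltbp1, which tethers latent TGF-beta to microfibrils, was at 0.18 (0.29, 0.04 and 0.19 in the 3 pairs). Thsd4, which promotes fibrillin-1 assembly, was at -0.18. It was above background on 4 arrays but not on knockout replicates 1 and 2, so the size of its difference is uncertain. Further fibulin and EMILIN relatives had a median of 0.04 over 7 genes, but the sign turned among those above background: it was -0.03 over the 4 above it in the mean of either genotype and -0.11 over the 3 above it on all 6 arrays. Emilin2 was at -0.21 (-0.09, -0.13 and -0.41). Hmcn1, a giant relative of the fibulins, was above background on 2 arrays, both of replicate 3, and not in the mean of either genotype, so no size is given.

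Genes of elastin crosslinking and secretion had a median of 0.05 over 8 genes and 0.0073 over the 7 above background on all 6 arrays. Tll1, a tolloid protease related to the one that cleaves procollagens and lysyl oxidase precursors, was at 0.47 (0.67, 0.30 and 0.44 in the pairs; SE 0.10 with the block, limma, adjusted p = 0.258). Loxl3, a lysyl oxidase relative, was at 0.29 (0.29, 0.35 and 0.21; limma with the block, adjusted p = 0.573). Lox and Loxl1, lysyl oxidases that act on elastin, chosen after their values were seen, were at -0.11 and -0.04. Tll1 and Loxl3 thus had higher signal in the knockout in each pair, without passing the test, while Lox was lower in each pair and Loxl1 had no common sign.

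Elastases and the elastin receptor complex had a median of 0.03 over 11 genes (-0.01 over those above background in the mean of either genotype and 0.07 over those above it on all 6 arrays), with Mmp2, a gelatinase that also cleaves elastin, at 0.27 and Ctsl, a lysosomal protease, at 0.24; each was higher in all 3 pairs. Integrins that bind these proteins had a median of 0.08 over 10 genes. Itga8, the alpha-8 chain of an integrin that binds fibronectin and nephronectin, was at -0.66 (-0.46, -0.66 and -0.87 in the pairs; SE 0.10 with the block, limma, adjusted p = 0.0827), and Itgb1, the beta-1 chain it pairs with, at 0.13. Signals and factors known to act on elastin transcription had a median of 0.05 over 13 genes. Igf1, a growth factor that raises elastin synthesis in smooth muscle cells, was at -0.42 (-0.13, -0.15 and -0.99), and Fgf2, which lowers it in fibroblasts, at 0.21 (0.11, 0.03 and 0.49). As for Eln, the pair of replicate 3 had the largest difference for both.

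Markers of cells that make or lack elastic fibres were read beside these values. The 8 smooth muscle markers had a median difference of -0.04. Of them 4 were lower and 2 higher in all 3 pairs, where 13.8% of all genes were lower and 13.8% higher. The mean log2 level of the smooth muscle markers ran from 8.29 to 8.82 in wild type and from 8.27 to 8.83 in the knockout. Acta2, smooth muscle actin, was at 0.03 and Myh11, smooth muscle myosin, at -0.17 (-0.02, 0.02 and -0.51). Des was at 0.31 (0.07, 0.12 and 0.73), without overlap of the genotypes, and Cnn1 at 0.12, each higher in all 3 pairs. Lmod1 (-0.28), Smtn (-0.15), Tagln (-0.07) and Myocd (-0.02) were lower in all 3 pairs. The 8 fibroblast markers had a median of -0.11. Of them 4 were lower and 1 higher in all 3 pairs, where 15.3% and 15.5% of genes above background on all arrays were. The mean log2 level of the fibroblast markers was 9.54 to 10.23 in wild type and 9.36 to 10.09 in the knockout. Col1a1, a chain of collagen I, was at -0.06, Pdgfra, the PDGF receptor alpha, at -0.36, and Col3a1, the chain of collagen III, at -0.40. S100a4 (-0.26), Thy1 (-0.12) and Col1a2 (-0.11) were lower in all 3 pairs, as was Col3a1. Fn1, the fibronectin gene, was at 0.14, higher in all 3 pairs and without overlap of the genotypes. Vim was at 0.04, with no common sign in the pairs.

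Pericyte markers had a median of -0.11 over 7 genes, cartilage markers -0.0026 over 8 and mesothelial markers -0.11 over 6. Of 5 bone markers, 4 (Sp7, Bglap, Ibsp and Dmp1) were at or below background on all 6 arrays, and the other, Alpl, was at -0.24. Of the 7 endothelial markers, 0 were above background on all 6 arrays, and Pecam1, Tek, Tie1 and Esam were at or below it on every one. Macrophage markers had a median of 0.06 over 6 genes, with Ptprc, Itgam and Cd14 at or below background on all 6. Neural markers had one of 0.05 over 6. The median turned sign with detection for epithelial markers, from 0.0033 over 6 genes to -0.05 over the 3 above background on all 6 arrays, and for pluripotency markers, from -0.06 over 7 genes to 0.05 for Pou5f1 alone. The part that the fibroblast and other markers have in the elastic fibre values was not tested.

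The genes whose profile over the 6 arrays lay nearest to that of Eln were sought among 8025 genes above background on all arrays. The measure was the root mean square difference of log2 signals, each centred on its own mean. The 6 arrays share the step to replicate 3, which sets much of any likeness. The profile of Eln also holds its lower signal in the knockout. Genes near it are therefore lower in the knockout by the way they were chosen, and their pair differences are no separate evidence. The nearest 5 were Dpt (0.18), the matrix protein dermatopontin, Ccn3 (0.20), a matricellular protein, Egfl6 (0.23), a secreted protein with EGF repeats, Aqp1 (0.25), a water channel, and Tnn (0.26), a tenascin. Dpt read 6.77, 6.92 and 8.70 in wild type and 6.39, 6.30 and 6.84 in the knockout, with pair differences of -0.38, -0.61 and -1.86. The pair differences were -0.73, -0.90 and -1.19 for Ccn3 and -0.67, -0.43 and -1.90 for Egfl6. They were -0.55, -0.91 and -0.90 for Aqp1 and -0.39, -0.36 and -1.06 for Tnn. Of the other elastic fibre genes Fbn2 was the nearest to Eln, at 0.39, and Emilin1 the farthest, at 0.70.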

How the data were processed

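RNA of 6 MEF samples (3 per genotype) was measured on Affymetrix arrays. The authors deposited a log2 signal for every probe set. The submitters' processing notes name Partek and RMA, a method that corrects background, normalizes and summarizes probes; the sources used here give no version, parameter or genome build, and the range of the values shows the log base. No scanner files were used, so background correction was not varied.

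Of 41345 probe sets, the platform annotation named 1 gene for 23521, several for 1814 and did not list 16010. For each gene the probe set of highest mean signal was kept. Knockout was compared with wild type over 22180 genes with limma 3.58.1 in R 4.3.3 (lmFit, eBayes, two-sided, Benjamini-Hochberg threshold 0.05), with genotype as the only term and, as an alternative, with the replicate number as a block. Deviations of equal-numbered arrays from their genotype mean correlated at 0.92, 0.895 and 0.973 (bound 0.1). The numbers were therefore taken as pairs, which comes from the data, not a label, and is carried by replicate 3. Since replicate 3 lies apart in both genotypes, such correlations cannot show whether replicates 1 and 2 are matched by number. The script was tested on simulated data. For arrays, their number limits the precision.

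The members and lists were chosen with earlier results of these data known. Named genes are all members, those genes of the other lists that passed in either fit, or where none did the 2 of smallest p with the block, and the 5 nearest to Eln without predicted genes; marker genes and others were named after their values were seen.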

Additional observations from a re-analysis of the deposited data

How the results depend on the processing

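With 3 arrays per genotype and both replicate 3 arrays apart from the rest, the number of genes past the threshold depended on the replicate block: it was 0 without a block, 17 with the replicate block, 19 with replicate 3 as a batch, 21 with quantile normalization and the block, 42 with the filter on dim genes and the block, and 46 with a variance trend, robust estimation and the block, the last 2 settings added after the data were seen. Leaving out replicates gave 0 genes without the block, and with it 98, 2 and 4 without replicates 1, 2 and 3. The median difference of the 9 genes ranged from -0.54 to 0.033 when replicates were left out; removing a single array gives the genotypes unequal numbers of replicate 3 arrays. Filters, centring, probe set averaging and quantile normalization moved it by less than the SD of the pair medians. Mfap4 had the opposite sign with quantile normalization (0.0073, with or without the block) and ranged from -0.084 to 0.071 over left-out arrays; it was 0.032 and 0.0027 with the block and without replicates 2 and 3. Over left-out replicates, signs also turned for Mfap2 (-0.61 to 0.033), Mfap5 (-0.98 to 0.23), Fbln5 (-0.29 to 0.041), Fbln2 (-0.11 to 0.31), Ltbp1 (-0.10 to 0.44), Tll1 (-0.11 to 1.06), Mmp2 (-0.014 to 0.57), Ctsl (-0.14 to 0.59) and Itgb1 (-0.046 to 0.28). With the block and a replicate number left out of both genotypes, 0 of these members turned: Mfap2 ran from -0.32 to -0.19 and Mfap5 from -0.48 to -0.31. Fbln5 ran from -0.17 to -0.11 and Fbln2 from 0.084 to 0.12. Apart from the unequal numbers, the cause of the turns was not tested. Eln (-1.38 to -0.54), Fbn2 (-1.17 to -0.13), Fbln1 (-0.54 to -0.16) and Emilin1 (-0.12 to -0.02) kept their sign in every setting run.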
